A study of Arabidopsis thaliana with 30 samples.

Results

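The comparison described here set the MCU4 overexpression line (4OX) of Arabidopsis thaliana against wild type Columbia (Col), in 6 of the 30 RNA-seq libraries of the series. Its members were all genes with a mean of at least 1 normalised read count over the 3 4OX and 3 Col libraries, which kept 23295 of the 23604 genes listed for this comparison. The tables of the series list 24721 genes in all. Each library was made from whole seedlings, 10 days old, grown on half-strength MS medium with sucrose. By the study's methods they were moved to liquid medium and shaken in darkness for a night before treatment. They were then given DMSO, the solvent control labelled CK, for 5 hours by the labels. In the 4OX line an MCU4 cDNA joined to YFP had been introduced into Col-0 plants with a binary vector, and the study names the 35S promoter, active in most cells, for its MCU-YFP plants. The labels name 1 such line, so that every difference below belongs to this line. The labels call the samples of a group replicates, the study's methods call them biological, and neither describes how they were grown apart, so the p-values measure the spread between these libraries.

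MCU proteins form the pore of the uniporter through which calcium enters the mitochondrial matrix, and MICU is its calcium-binding regulator. Matrix calcium tunes dehydrogenases and respiration, and plant mitochondria that are disturbed signal to the nucleus, where genes of the alternative oxidase pathway, chaperones and proteases are known to respond. Arabidopsis carries several MCU genes with differing expression between tissues.

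Depth ranged from 27388597 to 34557734 recovered reads in the 6 libraries. The second 4OX library stood apart from the other 5. Among the 18460 genes with a mean of at least 50, 157 were more than 2 times the highest of the other 5 libraries in it and 482 were below 0.5 times the lowest, against at most 20 and 31 genes in any other library. Without it 2.15% of genes were called higher and 3.16% lower. Its transcripts are given apart further on. The headings of the tables also disagree on treatment. Read for read, the 3 4OX and 3 Col libraries headed CK here carry the heading AA (50 µM antimycin A for 5 hours) in the tables that compare treatments, where the libraries headed CK are 6 others. On a scale common to all 12 libraries, AOX1A, the alternative oxidase gene raised by antimycin A, had means of 7560 in 4OX and 9734 in Col in the libraries used here and 22103 and 19123 in the other 6. AOX1D, its close relative, had means of 300.0 and 667 here against 3226 and 2471 there. Both markers were thus lower in every library used here than in each of the other 6. The further antimycin A markers NDB2, CYP81D8 and CYP81D11 were separated in the same way. UPOX, OM66 and AT12CYS-2 overlapped between the sets, with lower means here in both 4OX and Col. The line table's own labels are followed below.

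In all, 1288 genes passed the test (limma with a mean-variance trend, adjusted p under 0.05 and fold change over 1.5), which is 5.53% of the genes tested. Of these, 645 (2.77%) were higher and 643 (2.76%) lower in 4OX, with median log2 differences of 0.77 and -0.83. A change of more than 4-fold was seen for 64 of the genes that rose and 24 of those that fell. The call depended on having all 6 libraries. Only 3 of the 1288 had an adjusted p under 0.01, and the others lay between 0.0151 and 0.0498. Leaving out 4OX replicate 1, 2 or 3 left 665, 1233 and 270 genes past the test, and leaving out Col replicate 1, 2 or 3 left 2, 2 and 6. MCU4 and AT5G24240 were the 2 genes called in all 6 of these sets. When the libraries were scaled by their totals, 69.2% of the calls were higher in place of 50.1%, so the balance of rising and falling genes is a matter of scaling, and the median over all genes moved by 0.08 with it. In whole seedlings fewer cells of a type and less RNA per cell cannot be told apart in any of these values. Separation of the groups was more common than a call, since for 36.7% of genes all 3 values of one group lay beyond all 3 of the other (18.5% with 4OX above and 18.2% with 4OX below).

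MCU4 (AT4G36820; chr4:17346805-17348265, plus strand, TAIR10.1) was the most changed transcript and matched the label of the line. Its normalised read count was 5187, 4849.5 and 5059.6 in 4OX and 5.05, 3.74 and 0.946 in Col. The values did not overlap, and Col lay at 1 to 5 reads per library (difference 10.36, SE 0.39, adjusted p = 0.000134, on the log2(normalised read count + 1) scale used for all differences below). The files give 1 value per gene, so reads of the transgene and of the endogenous gene were counted together. The 5 other uniporter genes analysed here did not rise. MCU6, another pore gene, fell, with 169, 180.0 and 118 in 4OX and 364, 347 and 227 in Col (difference -0.99, SE 0.24, adjusted p = 0.0453). MICU read 4750.2, 3297 and 4290.0 in 4OX and 5757, 5907 and 6149 in Col, below Col in every library (difference -0.55, SE 0.14, adjusted p = 0.0463), which is 1.46-fold lower and short of the fold threshold. MCU1, MCU2 and MCU3 had differences of -0.39, 0.09 and -0.10, adjusted p 0.454, 0.686 and 0.578, with overlapping groups. For MCU1 the second 4OX library, at 118, was far below the other 5, which lay between 243 and 289.8.

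**Figure D1:**
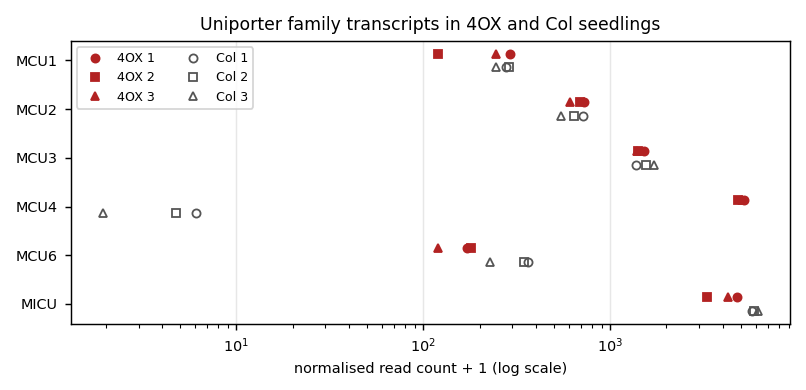
Normalised read count plus 1 (log axis) of the uniporter genes in each library, 4OX in red and Col open, with the symbol shape giving the replicate number. MCU4 lies at 4849.5 to 5187 in 4OX and below 6 in Col, MCU6 lies lower in all 3 4OX libraries, and MCU1, MCU2 and MCU3 overlap.

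Next to MCU4, the transcript with the largest difference among the abundant genes was AT5G24240, a phosphatidylinositol 4-kinase gamma-like gene (chr5:8230916-8234150, minus strand, TAIR10.1). It read 1577, 1687 and 1275 in 4OX and 32.3, 44.0 and 26.5 in Col (difference 5.44, SE 0.21, adjusted p = 0.000134). AT5G24200, an alpha/beta-hydrolase gene on the same chromosome (chr5:8202919-8205824, plus strand), read 1473, 2772 and 462 in 4OX and 21.2, 133 and 96.5 in Col (difference 4.22, SE 0.80, adjusted p = 0.0259). The pair lie 25091 bases apart, and none of the 5 genes listed between them passed the test. The remaining rising genes include IRT1 and FRO2, taken up with the iron list. FMO1, the monooxygenase that makes the systemic resistance signal N-hydroxypipecolic acid, read 741, 451 and 70.9 in 4OX and 10.1, 17.8 and 14.2 in Col. PBS3, an enzyme of salicylic acid synthesis, read 1767, 2603 and 385 in 4OX and 37.4, 185 and 70.9 in Col. AIG1, a pathogen-induced GTP-binding protein gene, read 4503, 7944 and 1960.1 in 4OX and 440.5, 873 and 407 in Col. All 3 were lowest in the third 4OX library, which still lay above each Col library, with differences of 4.30, 3.92 and 2.93. TAT3, a tyrosine aminotransferase induced by jasmonate, rose from 8.08, 1.87 and 17.0 in Col to 85.7, 128 and 102 in 4OX (difference 3.75, SE 0.63, adjusted p = 0.0231). The natriuretic peptide gene PNP-A, the defensin-like gene AT1G13609 and the P-loop hydrolase gene AT3G28510 rose by 3.15, 3.13 and 2.96.

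The falling genes were led by AT3G04360, which encodes a calcium-dependent lipid-binding (CaLB domain) protein (chr3:1156908-1158470, minus strand). Its counts were 8.16, 3.79 and 2.21 in 4OX and 176, 98.2 and 70.0 in Col (difference -4.37, SE 0.51, adjusted p = 0.0190). CYP81D11, a cytochrome P450 gene known for induction by xenobiotics, fell to 203, 99.5 and 285 from 1609, 1283 and 869 (difference -2.75, SE 0.38, adjusted p = 0.0195). Every 4OX library was below every Col library for both. XTH25, a xyloglucan-modifying enzyme of the cell wall, read 18.4, 28.4 and 23.3 in 4OX and 114, 141 and 102 in Col (difference -2.31, SE 0.27, adjusted p = 0.0190). GAT1_2.1, a glutamine amidotransferase-like gene, read 154, 282 and 178 in 4OX and 1402, 689 and 947 in Col (difference -2.29, SE 0.30, adjusted p = 0.0195). Light-harvesting genes made up 3 of the 12, LHCB1.4, LHCB1.1 and LHCB1.5, and are taken up with their list. FBA5, an aldolase gene, the F-box gene AT1G73120, the sulfur-deficiency gene LSU3, the glycine-rich or oleosin-annotated gene AT5G56100 and CBSX5 made up the rest, with differences from -2.72 to -2.11.

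**Figure D2:**
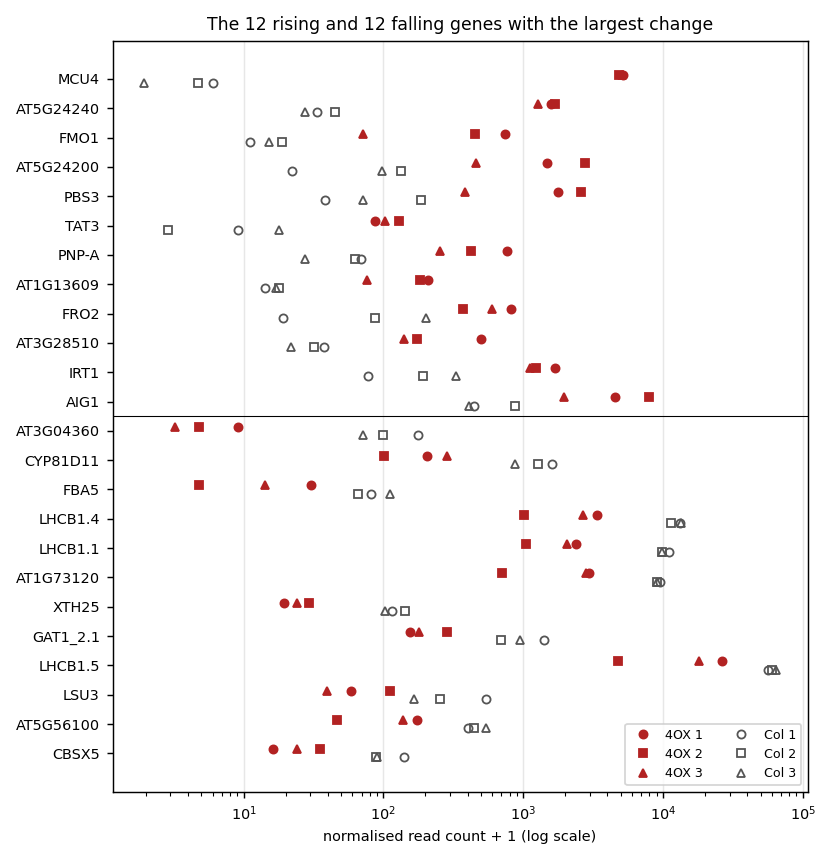
Normalised read count plus 1 (log axis) in each library for the 12 rising genes (above the line) and 12 falling genes (below it) with the largest log2 difference among called genes with a mean of at least 50 and groups that do not overlap. Red symbols are 4OX, open symbols Col, and shapes give the replicate number. FMO1 spreads from 70.9 to 741 over the 4OX libraries, while MCU4 and XTH25 are tight.

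Genes of iron uptake rose in 4OX and the gene of an iron store fell. Of the 18 iron genes tested, 8 rose and 1 fell, with a median of 1.12 (1.01 without the second 4OX library). Over all genes tested 2.77% rose and 2.76% fell. IRT1, the root ferrous iron transporter, read 1679, 1242 and 1113 in 4OX and 76.8, 191 and 329 in Col (difference 2.96, SE 0.47, adjusted p = 0.0217). FRO2, the ferric chelate reductase that works with it, read 814, 371 and 598 in 4OX and 18.2, 86.0 and 201 in Col (difference 3.02, SE 0.77, adjusted p = 0.0490). Col itself varied widely for both and was highest in replicate 3. bHLH38 and bHLH39, transcription factors that drive these genes, rose by 2.88 and 1.85, while FIT, their partner, had a difference of -0.01 (adjusted p 0.974). NAS4 for nicotianamine synthesis, the iron signalling peptides IMA1 and IMA2, whose genes are similar enough to share reads, and the transporter OPT3 rose by 1.63, 1.29, 1.33 and 0.78. FER1, the plastid ferritin, fell, with 2309, 672 and 1873 in 4OX and 5828, 5373 and 5985 in Col (adjusted p = 0.0288), and its lowest value was in the second 4OX library. BTS and FRO3 had differences of -0.07 and -0.28 and did not pass.

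A minority of the salicylate and immune genes passed the test. Of 14 tested, 3 rose and none fell, and the median was 1.05 with 11 positive. The called share was 21.4%, against 5.53% over all genes tested. ICS1, which makes the isochorismate precursor of salicylic acid, read 3086, 3414 and 1185 in 4OX and 768, 1015 and 668 in Col (difference 1.53, SE 0.38, adjusted p = 0.0471). WRKY70, a regulator of salicylate responses, read 1054, 1354 and 474 in 4OX and 112, 228 and 193 in Col (difference 2.36, SE 0.41, adjusted p = 0.0237). WRKY38 read 53.1, 77.7 and 46.5 in 4OX and 7.07, 11.2 and 5.67 in Col (difference 2.75, SE 0.38, adjusted p = 0.0195). PR1 and PR2, the classical pathogenesis-related markers, were close to 0 in most libraries, with 17.3, 0 and 1.11 in 4OX and 0, 0.935 and 0.946 in Col for PR1, and did not pass the test. Over the whole WRKY family 6 of 61 rose and 1 fell, WRKY54 and WRKY51 among the former with 2.71 and 2.29. The first and second 4OX libraries were higher than the third for each of ICS1, WRKY70 and WRKY54.

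Chaperone genes of 4 compartments rose in 4OX, those of mitochondria in the largest share. These lists, and those of the ribosomes, OXPHOS, import and proteases, come from the study, which assembled them on lines of the same series, so they are no independent evidence of direction. Of the 14 mitochondrial chaperone genes, 10 rose and none fell, all 14 were positive and the median was 0.73. HSP70-10, a mitochondrial Hsp70, read 3459, 4776 and 3170.4 in 4OX and 1697, 2073 and 2084 in Col (difference 0.95, SE 0.16, adjusted p = 0.0235). CPN60L1, a subunit of the mitochondrial chaperonin, read 4131, 5374 and 4034 in 4OX and 2139.8, 2354 and 2704 in Col (difference 0.91, SE 0.14, adjusted p = 0.0208). HSP90-6 read 3653, 5017 and 3627 in 4OX and 1832, 2084 and 2374 in Col, and the GrpE co-chaperone Mge2 1239, 1719 and 1372 in 4OX and 618, 791 and 813 in Col. In each of these the second 4OX library was the highest, but without it 9 of the 14 still passed and the median was 0.61. Of the 21 cytosolic chaperone genes 8 rose, led by the heat-inducible HSP70-4, with 2976, 6402 and 2778 in 4OX and 1100.2, 1359.7 and 1060.0 in Col (difference 1.69, SE 0.30, adjusted p = 0.0238), and HSP70-2, with 3416, 5345 and 2033 in 4OX and 1055, 1132 and 872 in Col. Without the second 4OX library 6 of the 21 rose. Of the 11 endoplasmic reticulum chaperone genes 5 rose, and all 11 had groups that did not overlap. Over all genes tested 2.77% rose, and 18.5% had all 3 4OX values above the 3 Col values. BIP1 and BIP2, the lumenal Hsp70 genes, whose near-identical sequences may share reads, read 17164, 19549.6 and 15801 in 4OX and 9968, 10350.4 and 10892 in Col for BIP1 and 12462, 13318 and 11273 in 4OX and 7478, 7749.7 and 7933 in Col for BIP2. The calreticulin gene CRT1 and the disulfide isomerase gene PDIL1-2 rose by 0.65 and 0.69. Of the 14 chloroplast chaperone genes 4 rose, CPN60B3, CLPB3, HSP90-5 and CPN60A2, by 0.65 to 0.88. None of the 60 chaperone genes in these 4 lists fell.

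Genes for making and importing mitochondrial proteins had mostly positive differences. Of 56 mitoribosome genes 52 were positive, 7 rose and none fell (median 0.43), while for all genes tested 50% were positive and the median was -3.68e-05. HLL, a mitochondrial ribosomal protein L14 gene known for its role in ovule development, read 761, 982 and 681 in 4OX and 376, 439.5 and 423 in Col (difference 0.95, SE 0.15, adjusted p = 0.0224). RPL1 read 1517, 1852 and 1527 in 4OX and 881, 850.1 and 867 in Col (difference 0.91, SE 0.10, adjusted p = 0.0190). Of 15 import genes 14 were positive, with a median of 0.54 (0.33 without the second 4OX library), and 3 rose, TIM10, TIM13 and Mge2, with 3391, 4171 and 3422 in 4OX and 2075, 2452 and 2256 in Col for the small inner-membrane translocase TIM10. Of 12 protease genes 1 rose, the matrix protease LON1, with 2511, 3413 and 2503 in 4OX and 1519, 1589 and 1612 in Col (difference 0.82, SE 0.13, adjusted p = 0.0218). OXPHOS genes moved least, with 2 of 75 called, 55 positive and a median of 0.15. The 2 were AT5G25450, a small subunit gene of the complex III group, at 1.18, and AT5G61310, a cytochrome c oxidase subunit Vc gene, at 0.63. Pentatricopeptide repeat genes, most of which act on organelle RNA, had 192 of 268 positive with 11 higher and 3 lower. Their called share was 5.22%, near the 5.53% over all genes tested.

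**Figure D3:**
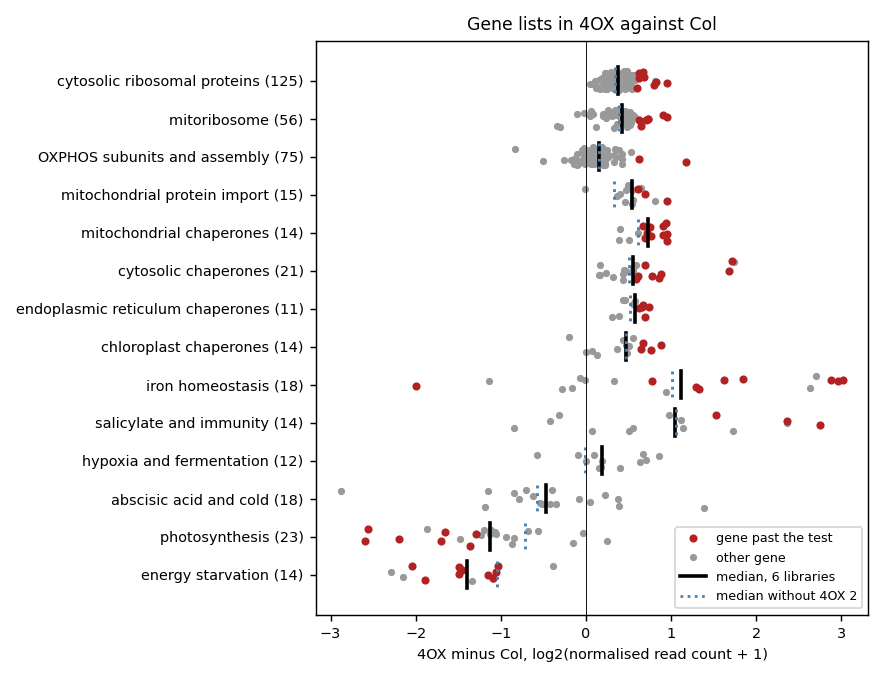
Log2 difference of 4OX minus Col for each gene of 14 lists, with the number of genes tested in brackets. Red points passed the test, grey points did not, the black bar is the list median and the dotted bar the median without the second 4OX library. Every cytosolic ribosomal protein gene lies right of 0 and nearly all photosynthesis and energy starvation genes lie left of it, with dotted bars nearer to 0.

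Cytosolic ribosomal protein genes had small differences of 1 sign. All 125 were positive, with a median of 0.38 (0.34 without the second 4OX library). In 121 of them the 3 4OX values lay above the 3 Col values, against 18.5% of all genes tested. Only 8 (6.4%) exceeded the fold threshold with an adjusted p under 0.05, against 2.77% of all genes called higher, and none fell. RPL7A read 4439, 5437 and 4459 in 4OX and 2688, 2829.8 and 2711 in Col (difference 0.79, SE 0.10, adjusted p = 0.0195). RPS9C read 2308, 3141 and 2241 in 4OX and 1295, 1542 and 1451 in Col (difference 0.83, SE 0.14, adjusted p = 0.0235). RPS11B and RPL9D rose by 0.95 and 0.68. Many of these genes have close copies among which short reads may be divided. No gene of the eIF2alpha and TOR pathways passed both thresholds. The eIF2alpha gene AT5G05470 read 1120.5, 1228 and 1089 in 4OX and 811, 756 and 877 in Col (difference 0.49, SE 0.10, adjusted p = 0.0286), under the fold threshold, and its homologue AT2G40290 had a difference of 0.22 (adjusted p 0.122). GCN2, the kinase that phosphorylates eIF2alpha, had a difference of -0.04. TOR, RAPTOR1 and the SnRK1 kinase genes KIN10 and KIN11 had -0.34, -0.07, -0.07 and -0.02. TOR was below Col in every library. Of the 7 genes of these pathways 3 had an unadjusted p under 0.05, against 28.9% of all genes tested, and edgeR and DESeq2 called 0.

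The promoters of these groups were read to show which short elements their members share. In the 200 bases before the RefSeq start of each gene (TAIR10.1), the site II element TGGGCC, searched on both strands, was present in 60% of the 125 cytosolic ribosomal protein genes, 35.7% of the 56 mitoribosome genes and 42.9% of the 14 mitochondrial chaperone genes, and in 14.6% of the 22075 tested genes with a window. Site II was also in 41.0% of the 39 heat shock promoters, 14.3% of the 14 energy starvation promoters and 0 of the 23 photosynthesis promoters. The telo-box AAACCCTA was in 15.2% of the cytosolic ribosomal protein promoters and in 2.94% of those of the tested genes. The windows of RPS9C, RPS11B, RPL7A and RPL9D, the 4 cytosolic members with the largest change, held no site II. The I-box GATAAG, an element named from light-regulated promoters, was in 57.1% of the 14 energy starvation promoters and in 9.98% of those of the tested genes. Windows of called genes that carry an element, with no other gene in them, are printed 5′ to 3′ on the gene's strand, site II in capitals for Mge2 and the I-box in capitals for the rest. A match describes the letters and not a bound site.
Mge2 (mitochondrial co-chaperone; chr4:13486859-13487058, minus strand): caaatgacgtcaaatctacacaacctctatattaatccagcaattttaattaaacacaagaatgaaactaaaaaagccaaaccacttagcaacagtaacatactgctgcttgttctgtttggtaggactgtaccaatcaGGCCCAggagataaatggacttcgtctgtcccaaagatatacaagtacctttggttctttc
SEN5 (energy starvation; chr3:5212784-5212983, plus strand): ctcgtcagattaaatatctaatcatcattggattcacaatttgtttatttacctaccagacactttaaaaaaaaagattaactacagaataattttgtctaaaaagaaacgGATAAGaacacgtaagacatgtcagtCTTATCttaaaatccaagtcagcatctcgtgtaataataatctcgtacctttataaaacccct
TPS11 (energy starvation; chr2:8108698-8108897, plus strand): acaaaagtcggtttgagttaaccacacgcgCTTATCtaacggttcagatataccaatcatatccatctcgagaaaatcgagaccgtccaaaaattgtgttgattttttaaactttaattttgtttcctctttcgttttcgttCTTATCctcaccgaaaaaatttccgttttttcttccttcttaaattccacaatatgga
BCAT2 (energy starvation; chr1:3287887-3288086, plus strand): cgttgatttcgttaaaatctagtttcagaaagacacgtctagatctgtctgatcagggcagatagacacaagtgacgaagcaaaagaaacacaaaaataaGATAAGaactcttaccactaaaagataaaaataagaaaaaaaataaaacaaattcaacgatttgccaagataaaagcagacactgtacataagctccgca

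Transcripts raised by carbon and energy shortage were lower in 4OX. Of 14 such genes none was positive and 10 fell, with a median of -1.39, while 2.76% of all genes tested fell. SEN5 (AT3G15450), a dark- and sugar-responsive gene whose I-box pair is shown above, read 6446, 1458 and 5178 in 4OX and 14889.8, 12028 and 18903 in Col (difference -2.04, SE 0.51, adjusted p = 0.0466). BCAT2 and MCCA, enzymes of branched-chain amino acid breakdown, read 621, 392 and 606 in 4OX and 1459.9, 1524 and 1479.9 in Col and 1843, 504 and 1668 in 4OX and 4042, 3916 and 4957 in Col, in that order. TPS11 and TPS8 of trehalose metabolism fell by 1.49 and 1.15, and GDH2, a glutamate dehydrogenase gene, fell by 1.06. ASN1, the dark-induced asparagine synthetase gene, read 837, 149.7 and 630.1 in 4OX and 1446, 1993 and 2421 in Col and missed the threshold (difference -2.15, SE 0.58, adjusted p = 0.0567). For SEN5, MCCA, TPS11 and ASN1 the second 4OX library was the lowest of all 6. Without that library 12 of the 14 fell and the median was -1.04.

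Light-harvesting genes fell as well. Of 23 photosynthesis genes 22 were negative and 7 fell, with a median of -1.13, against 2.76% of all genes tested that fell. LHCB1.1 read 2404, 1049 and 2051 in 4OX and 11100.2, 9902 and 9796 in Col (difference -2.57, SE 0.28, adjusted p = 0.0190). LHCB1.4 read 3374, 1012 and 2674 in 4OX and 13311, 11366 and 13412 in Col (difference -2.60, SE 0.40, adjusted p = 0.0208). The LHCB1 genes are near-identical copies, so how reads were divided among them is uncertain. LHCB3, an antenna protein gene without such copies, read 3231, 1651 and 3575 in 4OX and 8525, 8049 and 8753 in Col (difference -1.66, SE 0.26, adjusted p = 0.0218), and LHCA1 of photosystem I 6734, 2911 and 6648 in 4OX and 17489, 16278 and 15869 in Col. The Rubisco genes RBCS1A and RCA had differences of -0.87 and -0.84 and did not pass, and LHCB2.1 had 0.25. For LHCB1.1, LHCB1.4, LHCB3 and LHCA1 the second 4OX library was the lowest of the 6, as it was for 27.4% of all genes tested, and the summed value of the list was 450940, 154447 and 426292 in 4OX against 766096 to 823646 in Col. Without it 13 of 23 fell and the median was -0.71. Markers of other cell types did not pass the test in these 6 libraries, with 0 of 6 root hair, 0 of 8 endodermis, 0 of 6 xylem, 0 of 4 phloem and 0 of 5 guard cell genes, all with reads in the libraries as sums. At an unadjusted p under 0.05 these were 0, 1, 3, 1 and 1 genes, against 28.9% of all genes tested. The edgeR test called 0 and DESeq2 1, in the guard cell list. The summed guard cell markers were 695 to 1109.6 in 4OX and 1147 to 1441 in Col, and the part of that shift in the result was not tested.

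Genes that report respiratory stress of mitochondria did not pass the main test as higher. Of 11 alternative respiration genes limma and edgeR called 0. An unadjusted p under 0.05 was found for 4 of the 11, against 28.9% of all genes tested. DESeq2 called 3 of them, against 2172 of all 23295. AOX1A read 9402, 11369.8 and 8372 in 4OX and 15406, 11204 and 10429.9 in Col (difference -0.34, SE 0.17, adjusted p = 0.247). AOX1D read 486, 286 and 383 in 4OX and 1325, 555 and 657 in Col, below Col in each library, with the first Col library far above the others (difference -1.06, SE 0.33, adjusted p = 0.0839). AOX1C and NDA1 lay above Col in each library, with differences of 1.53 and 1.00 and adjusted p of 0.0705 and 0.0789. Each passed as higher under 3 of 18 alternative settings, and AOX1D passed as lower under 2. In the limma fit over 15 libraries AOX1C had 1.53 (adjusted p 0.0348). AOX1B, NDA2, NDB1, NDB2, NDB3, NDB4 and NDC1 had differences of -0.26, -0.46, 0.02, 0.13, 0.25, 0.55 and 0.05. Of 14 mitochondrial dysfunction markers 1 fell, the P450 gene CYP81D8, with 5247, 3873 and 4508 in 4OX and 15454, 9725 and 8116 in Col (difference -1.24, SE 0.23, adjusted p = 0.0252), and none rose. Of 15 calcium pump and exchanger genes 1 fell, the vacuolar calcium ATPase gene ACA4, with 8246, 4388 and 8437 in 4OX and 12571, 12873 and 13404 in Col (difference -0.94, SE 0.24, adjusted p = 0.0476). The called shares of the dysfunction markers and of the pumps were 7.14% and 6.67%, near the 5.53% over all genes tested. Limma and edgeR called 0 of 17 genes for carriers and channels of the mitochondrion and 0 of 7 calmodulin-like genes. At an unadjusted p under 0.05 there were 4 and 1, against 28.9% of all genes tested, and DESeq2 called 0 and 1.

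Other regulators moved in small numbers. Called were 2 of 8 flowering, 2 of 16 clock, 3 of 12 phosphate starvation and 3 of 12 glucosinolate genes. For jasmonate, flavonoid and antioxidant genes it was 2 of 17, 2 of 13 and 1 of 8, against 5.53% of all genes tested. The floral repressor FLC and its relative MAF5 fell, with 142, 66.3 and 122 in 4OX and 259.6, 246 and 309 in Col for FLC and 39.8, 26.5 and 24.4 in 4OX and 112, 122 and 105 in Col for MAF5, and none of the 8 flowering genes tested was positive. The morning clock gene LHY rose to 137, 203 and 111 from 32.3, 50.5 and 51.1 (difference 1.71, SE 0.30, adjusted p = 0.0238), and BOA, an evening clock factor gene, fell by 0.85, while the other 14 clock genes did not pass. The phosphate starvation genes GDPD1, SPX1 and PAP17 fell by 1.25, 0.81 and 0.66. BCAT4, CYP79F2 and CYP83A1 of glucosinolate synthesis rose by 1.01, 0.86 and 0.76. The jasmonate synthesis gene AOC1 fell by 1.09, the flavonoid regulator gene MYB111 and the chalcone isomerase gene CHI (AT3G55120) rose by 1.23 and 0.73, and FSD1, an iron superoxide dismutase gene, fell by 0.69. Among detoxification and wall genes, GSTU16, GSTU7 and GSTU1 fell by 1.07, 1.04 and 0.64, EXPA16 fell by 1.07 and XTH30 fell by 0.74. The called shares were 11.1% of 27 tau glutathione transferase genes, 5.26% of 19 alpha-expansin genes and 7.41% of 27 XTH genes. The last 2 were near the 5.53% over all genes tested. The cyclin gene CYCB1;1 rose by 0.94, CPK22 rose by 1.72, CDPK2 fell by 0.63 and SAUR9 rose by 0.89. Of the 15 SAUR genes tested, SAUR9 was the only positive one and 14 were negative (median -0.35). The called shares were 6.67% of the SAUR genes and 6.67% of 30 calcium-dependent kinase genes, near the 5.53% over all genes tested. Of 7 cell division genes 1 was called. Limma and edgeR called 0 of 12 hypoxia genes, 0 of 18 abscisic acid and cold genes, 0 of 8 senescence genes and 0 of 22 ERF genes. At an unadjusted p under 0.05 these were 1, 7, 3 and 4 genes, against 28.9% of all genes tested. DESeq2 called 1, 3, 1 and 1, against 2172 of all 23295. ADH1, the alcohol dehydrogenase gene, ranged over 17470.1, 76469.8 and 24548 in 4OX and 18312, 48456 and 8511 in Col, the second library of each group being the highest.

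The second 4OX library carried more of many heat shock transcripts than the other 5. Of 38 heat shock genes tested, 28 were highest in that library, against 29.1% of all genes tested, and 14 were more than 2 times the highest of the other 5, against 1.89%. Of the 17 small heat shock protein genes, holdases that bind unfolding proteins, 15 were highest there and 11 were over 2 times. HSP17.6A read 34.7, 305 and 31.0 in 4OX and 38.4, 13.1 and 13.2 in Col. HSP17.4 read 5.10, 294 and 27.7 in 4OX and 26.3, 41.1 and 20.8 in Col. The single value of the second 4OX library set both apart, and neither passed the group test (adjusted p 0.217 and 0.884). HSP17.4 was 7.14 times the highest of the other libraries, HSP17.6A 7.94 times and HSP18.2 4.26 times. The summed value of the small genes was 8458 in it and 4290.2 to 5618 in the others. HSP101, the disaggregase, and HSP90.1 were 1.39 and 2.17 times. Without this library the median of the heat shock list was 0.12 in place of 0.38. HSP17.4 and HSP17.6C then had differences of -1.15 and -1.68 in place of 0.35 and -0.26, while HSP17.6A, HSP17.6II and HSP18.2 stayed positive at 0.76, 0.87 and 0.88. In the 6 libraries outside this comparison, described further on, 11 of the 38 genes were higher in 4OX and 0 lower (median 0.31), with 0.72 for HSP17.4, 0.93 for HSP17.6A, 1.07 for HSP17.6C and 1.26 for HSP18.2, all past the test.

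The transcript that stood out most in it was AT1G53880, a gene for the eIF-2B alpha subunit of translation initiation, with 14.3, 278 and 9.97 in 4OX and 11.1, 9.35 and 9.46 in Col. AT3G29970, a B12D family gene, read 586, 5579 and 881 in 4OX and 211, 973 and 46.3 in Col. UGT76D1, a glucosyltransferase gene, THAS1, the thalianol synthase gene, and CHX18, a cation exchanger gene, were 4.46, 4.16 and 4.15 times the highest of the other libraries. Of 14 heat shock factor genes tested, none rose in the group test and 1 fell. This was HSFA7A, with 379.6, 231 and 379.8 in 4OX and 782, 813 and 793 in Col (difference -1.30, SE 0.20, adjusted p = 0.0208). HSFA2 was highest in the second 4OX library, with 34.7, 93.8 and 43.2 in 4OX and 47.5, 56.1 and 18.0 in Col. Of the heat shock list 3 genes rose in the group test, HSP70-4 and the immunophilin genes ROF1 and ROF2, the latter pair by 0.61 and 0.77, and ROF2 was nearly level over the 3 4OX libraries at 329.6, 333 and 310.1.

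**Figure D4:**
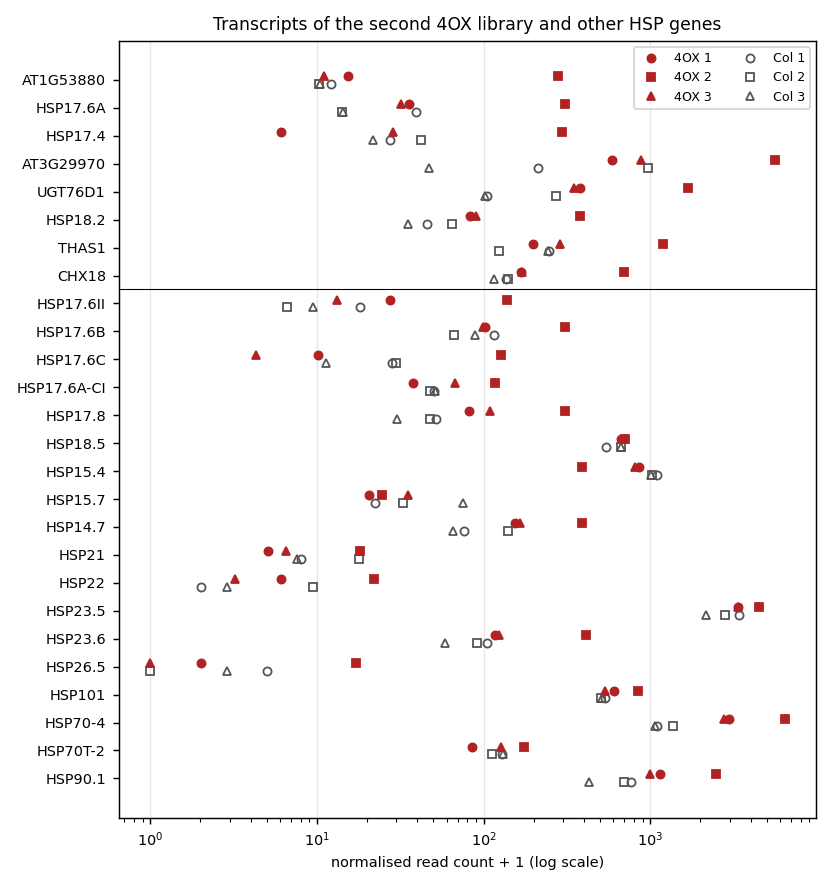
Normalised read count plus 1 (log axis) in each library for the 8 genes highest in the second 4OX library relative to the other 5 (above the line) and for the other HSP genes of the heat shock list (below it). Red squares are the second 4OX library. They lie right of every other symbol for most small HSP genes, but not for HSP15.4 and HSP15.7.

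The promoter of HSP17.4 is shown because this gene combined a large multiple with several matches to the binding unit of heat shock factors, GAANNTTC or TTCNNGAA on either strand. Both forms read the same on the opposite strand, and overlapping matches were merged in the capitals. HSP17.4 held 4 matches in its window, 41.0% of the 39 heat shock promoters held at least 1, and 12.8% of those of the tested genes did. The longer heat shock element, in which a further alternating GAA or TTC follows 2 bases on, was in 17.9% of the heat shock promoters and 0.326% of those of the tested genes. The windows of HSP17.6B, HSP17.6II and HSP17.8 held none.
HSP17.4 (chr3:16984868-16985067, minus strand, TAIR10.1): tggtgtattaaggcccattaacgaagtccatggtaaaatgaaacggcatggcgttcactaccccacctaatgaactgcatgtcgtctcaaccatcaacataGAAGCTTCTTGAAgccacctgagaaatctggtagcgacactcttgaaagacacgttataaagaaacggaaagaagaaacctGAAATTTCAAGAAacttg

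The 6 libraries that this comparison did not use, 3 of 4OX and 3 of Col under the other treatment heading, share no sample with it and were tested in the same way. There 2002 of 22345 genes passed (8.96%), 896 (4.01%) higher and 1106 (4.95%) lower. Without the first 4OX library there, 1002 passed. The Col libraries of that set had 11842565 to 21485355 reads, fewer than the 30080396 to 39065770 of 4OX, and a far larger share from the nuclear rRNA and organelle genes, and these count among the genes that passed there: of the 1104 lower calls among genes tested in both sets, 85 were plastid, 21 mitochondrial and 5 nuclear rRNA genes. Nuclear rRNA summed to 351218 to 1.63e+06 in Col there and to 19171 to 29331 in 4OX. MCU4 read 8181, 7951 and 7140 in 4OX there and 31.4, 18.1 and 29.1 in Col. Of the 635 rising genes tested there, 585 (92.1%) had the same sign and 146 (23.0%) passed in the same direction, against 52.6% positive and 4.03% higher among all genes tested in both sets. Of the 643 falling genes, 543 (84.4%) had the same sign and 139 (21.6%) passed, against 47.4% and 4.97%. In the opposite direction 2 and 1 passed. The sizes were smaller, with medians of 0.45 and -0.35. AT5G24240 had 6.46 there, IRT1 3.26, FRO2 3.94, bHLH38 3.48, AT5G24200 3.23, PBS3 2.37 and AT3G04360 -2.64, each passing the test. FMO1 with 2.26, TAT3 with 0.90 and LSU3 with 0.16 did not pass there.

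The lists are given side by side with their values there. Photosynthesis had 15 of 23 lower with a median of -0.84, and energy starvation 9 of 14 lower with -0.84. Of the guard cell markers 4 of 5 were lower there as well (median -0.82), and their part in the photosynthesis result was not tested. Cytosolic ribosomal protein genes had a median of 0.33 with 125 of 125 positive, and mitoribosome genes 0.33. Of the 21 cytosolic chaperones 1 rose there (median 0.13), of the mitochondrial chaperones 1 (median 0.40), of the endoplasmic reticulum and chloroplast chaperones none (medians 0.09 and -0.04). Hypoxia genes, none of which passed in the comparison here, had 11 of 12 higher with a median of 1.25. The difference between the sets, in 1 fit over all 12 libraries added after seeing the data, passed for 1 of those 12 genes, 1 of the 21 cytosolic and 1 of the 11 endoplasmic reticulum chaperone genes, and 0 of the mitochondrial and chloroplast chaperone, ribosomal protein, photosynthesis, energy starvation and heat shock genes. Over all genes it passed for 102 of 22708 (0.449%), of which 34 were plastid, 6 mitochondrial and 4 nuclear rRNA genes.

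**Figure D5:**
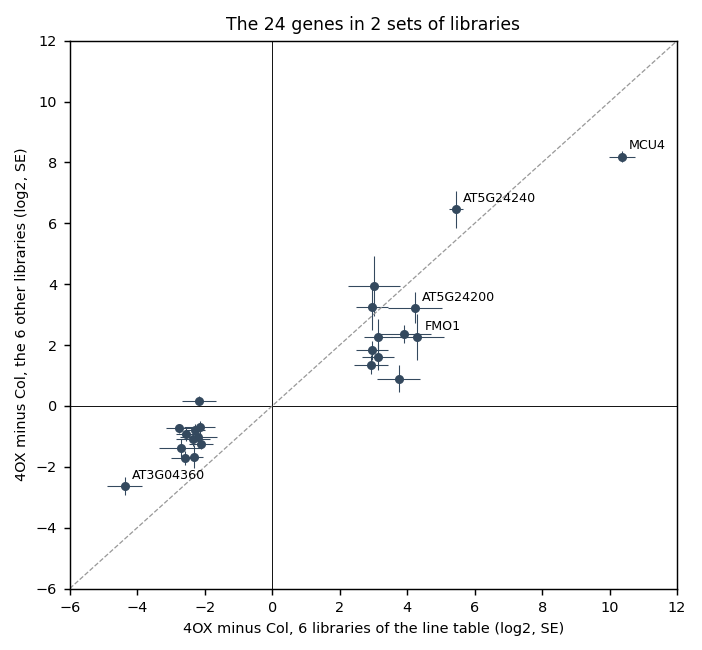
Log2 difference of 4OX minus Col for the 24 genes with the largest change, in the libraries of this comparison (horizontal) and in the 6 other libraries (vertical). Bars are standard errors and the dashed line marks equal values. All but LSU3 have the same sign in both, and most lie nearer to 0 on the vertical axis.

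Against the other lines of the series, tested in 1 fit over 15 libraries, 4OX differed in few genes. From the MCU2 overexpressor (2OX) 75 of 22778 genes differed (0.329%), from the MCU6 overexpressor (6OX) 10 (0.0439%) and from the sextuple mcu mutant 36 (0.158%). The first 2OX library held 2558905 reads, and its values weigh on the first of these. Through the variance pooled in the fit they also bear on the counts for 6OX and the sextuple mutant. A small count is therefore no measure of likeness between lines. MCU4 differed from each, by 11.70, 10.49 and 11.95. AT5G24240 lay, on the common scale, at 0, 48.4 and 44.1 for 2OX. Its 6OX values were 51.0, 48.1 and 49.6, and the sextuple mutant had 50.9, 28.6 and 32.6, against 1275 to 1687 in 4OX on its own scale. The differences of 4OX were 6.50, 4.54 and 4.98, and that from 2OX passed in limma (adjusted p 0.0120, against 0.168 and 0.0687). The value of 0 came from the 2OX library of 2558905 reads and enlarges the first difference. Every value of the other lines lay far below those of 4OX, so the tests do not set 2OX apart from 6OX and the sextuple mutant. Among the genes that differed from the sextuple mutant were LHCB1.1, LHCB1.4 and GAT1_2.1, by -2.39, -2.62 and -1.66. PBS3, WRKY70 and ICS1 were others, by 3.83, 2.02 and 1.78. Those that differed from 2OX included FMO1, AT5G24200 and AIG1, by 5.85, 4.31 and 2.47. MCU6 differed from 6OX by -2.66. The lines share the Col libraries, so their own differences from Col are given side by side only. For AT3G04360 the 4OX, 2OX, 6OX and sextuple libraries differed from Col by -4.28, -3.70, -3.68 and -3.98. For cytosolic ribosomal protein genes the medians were 0.39, 0.43, 0.23 and 0.48, and for photosynthesis genes -1.12, -0.75, -0.34 and -0.00434.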

How the data were processed

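RNA-seq libraries of whole Arabidopsis seedlings were compared between the MCU4 overexpression line and wild type, 3 each, and the members and gene lists were chosen with earlier results of these data known. The deposited signal values are read counts per gene that the authors divided by a size factor for each library. The submitters' processing notes name Bowtie 0.12.2 and TAIR10, and coordinates are those of RefSeq's TAIR10.1. All 844518 values (100%) came out as whole reads within 0.01 reads, and counts were recovered in this way. Each table was normalised on its own, and columns of fold changes and p-values made by the authors were not used.

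Log2(value + 1) was tested with limma 3.58.1 in R 4.3.3, with a mean-variance trend, for genes with a mean of at least 1, two-sided, with Benjamini-Hochberg adjustment over all genes tested. A gene passed where its fold change exceeded 1.5 and its adjusted p lay below 0.05. The recovered reads also went through edgeR 4.0.16 and DESeq2 1.42.0, and the alternatives further included other pseudocounts, filters, scalings, a replicate block and each library left out. The procedure was tested on simulated data. The other 6 libraries and the 15 libraries of all lines were fitted on reads divided by joint size factors.

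Named genes were all those of the uniporter, alternative respiration and eIF2alpha and TOR lists, 12 genes each way, taken by size of change from the calls with a mean of at least 50 and groups that do not overlap, up to 4 called members of each other list, the 8 genes highest in the second 4OX library and the heat shock list. Further members of the lists were named after their values were seen. Promoters were the 200 bases before the RefSeq start of a gene.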

Additional observations from a re-analysis of the deposited data

Results flagged for a closer look

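For 102 genes the difference between 4OX and Col was not the same in the libraries compared here and in the other 6, in a limma fit over the 12 libraries that was added after seeing the data, and 34 of them were plastid, 6 mitochondrial and 4 nuclear rRNA genes. Among the named genes these were CYP83A1, a glucosinolate enzyme gene, with a change of -0.90 from the first set to the second (0.74 to -0.16, adjusted p = 0.0498), HSP70-2 with -2.36 (1.70 to -0.66, adjusted p = 0.0412), and the mitochondrial gene ATMG00030 with -5.61 (1.56 to -4.05, adjusted p = 0.00584). The Col libraries of the second set held far more organelle and rRNA reads, and the part of this in the ATMG00030 value was not tested.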

How the results depend on the processing

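The count of 1288 genes kept within 1.5 times under 9 of 13 settings that used all 6 libraries, edgeR (1292) and library totals (1449) among them. It was 2172 with DESeq2, 7 without the mean-variance trend, and 3 for a fold change over 2 with adjusted p below 0.01. With a replicate block it was 2052, but the numbers were not taken as a pairing, since same-numbered libraries had correlations of -0.004, 0.148 and 0.102 in their deviations. Leaving out 1 library gave 2 to 1233 genes with limma. With edgeR, added after seeing the data, it gave 663, 1269 and 5 without 4OX replicate 1, 2 and 3 and 2 to 6 without a Col library. A left-out library leaves 2 in its group. MCU4 stayed called in all 18 alternatives, at 9.29 to 10.69. In the other 6 libraries 1002 to 2707 genes passed with 1 library left out in place of 2002. Against the sextuple mutant edgeR called 211 genes in place of 36. Over the 160 named genes, 413 of 959 values with 1 library left out lost the call and 2 gained it, under other settings 138 of 1912 lost it, and no named gene reversed. The same 2 genes kept the call with any library left out. An adjusted p near 0.05 for most calls, and 3 libraries in each group, limit how firmly single genes can be read.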
